A study of Mus musculus with 42 samples.

Results

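The libraries described here carried many transcripts of C1ql2, a gene of dentate gyrus granule cells, and were set against libraries that carried few. Of 42 mouse brain RNA-seq libraries, 10 had C1ql2 at 50 CPM or more (the count of the gene divided by the library total, scaled to a common total) and are called C1ql2-high. Another 21 libraries had C1ql2 under 10 CPM and are called C1ql2-low, and 11 lay between. The classes were chosen by the measured C1ql2 level, whatever the label of the library, so differences between them are described without a test.

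The study fed mice for 12 weeks on a western diet with 42% fat or a control diet with 11% fat. In some mice NaKtide was expressed from a transgene induced by doxycycline in the diet at 300 mg/kg; NaKtide is a peptide from the Na,K-ATPase that blocks signalling from this pump to the kinase Src. Doxycycline in the food of the remaining mice is not recorded in the labels, and neither is the promoter of the transgene. The submitters' design text names liver and fat depots in place of brain regions, so the regions and groups used here rest on the sample labels alone. Libraries labelled hippocampus comprised 6 of western diet with NaKtide, 5 of western diet, 5 of control diet with NaKtide and 6 of control diet. Libraries labelled cerebellum comprised 5 of each of these groups. Nothing in the labels ties a library to its own animal, so the spread behind each p-value may be technical.

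The dentate gyrus receives cortical input to the hippocampus, and its granule cells send axons called mossy fibres to CA3 pyramidal cells. Granule cells are known by the homeodomain factor Prox1, which sets their identity, and by transcripts that other hippocampal neurons hold in small amounts, among them Dsp, Lct and Tdo2. C1ql2 encodes a secreted C1q-like protein that granule cells release at mossy fibre synapses, where it organizes glutamate receptors. The gene (ENSMUSG00000036907) lies on chromosome 1 of GRCm38, from 120340582 to 120343174 on the plus strand.

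The promoters of C1ql2, which set the classes, and of Dsp, the other dentate gene that separated them at a mean of at least 5 CPM, are shown because the transcripts of both moved together. Each runs from 250 bases before to 50 bases after the start of the gene in RefSeq on GRCm38.p6, at chr1:120340332-120340631 for C1ql2 and chr13:38151044-38151343 for Dsp, both on the plus strand. Capitals mark the E-box CANNTG, the letters bound by basic helix-loop-helix factors.
C1ql2: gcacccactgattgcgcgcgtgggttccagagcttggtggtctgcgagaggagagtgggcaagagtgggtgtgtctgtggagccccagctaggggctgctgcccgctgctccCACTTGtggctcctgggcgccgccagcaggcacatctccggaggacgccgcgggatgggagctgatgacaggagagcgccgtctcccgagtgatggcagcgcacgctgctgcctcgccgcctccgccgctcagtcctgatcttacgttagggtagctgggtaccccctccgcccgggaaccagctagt
Dsp: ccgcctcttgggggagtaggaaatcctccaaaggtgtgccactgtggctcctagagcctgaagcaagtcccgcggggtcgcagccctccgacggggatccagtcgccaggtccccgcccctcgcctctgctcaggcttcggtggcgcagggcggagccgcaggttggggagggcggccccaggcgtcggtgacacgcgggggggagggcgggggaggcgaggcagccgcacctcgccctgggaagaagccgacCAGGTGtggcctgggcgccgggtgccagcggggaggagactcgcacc
Each window held 1 E-box, whose letters read as CANNTG on both strands. Of 32817 promoters of this length, 72.3% held at least 1. The letters TATAAA, searched on both strands, were in neither window and in 13.6% of all promoters. The bases G and C made up 67.3% of the C1ql2 window and 73% of the Dsp window.

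Totals were 4669374 to 9521002 counts per library, 5754798 to 7680935 in C1ql2-high and 5364756 to 9521002 in C1ql2-low libraries. Mitochondrial genes took 5.20% to 8.20% of the counts in C1ql2-high and 6.12% to 16.7% in C1ql2-low libraries, so the ranges overlapped. The region labels were only partly borne out by markers. Gabra6, which encodes a GABA-A subunit typical of granule cells of the cerebellum, reached 10 CPM in 3 of 20 libraries labelled cerebellum and in 1 of 22 labelled hippocampus. Neurod6, a factor of pyramidal neurons of the forebrain, reached 10 CPM in 19 of 22 libraries labelled hippocampus and in 15 of 20 labelled cerebellum. Xist, the RNA that coats the inactive X, was at 5 CPM or more in 4 libraries, all of them C1ql2-low. These were hippocampus western NaKtide 6, hippocampus control 5 and 6 and cerebellum western NaKtide 5. The last 3 were also the closest libraries to each other, with a mean chi-square per gene of 2.62 between hippocampus control 5 and 6, against 7.09 for the closest pair outside them.

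C1ql2-high libraries were found under both region labels, on both diets and with and without NaKtide. The hippocampus label held 8 of the 10, 11 of the 21 C1ql2-low libraries and 3 of the 11 between. The cerebellum label held 2 C1ql2-high, 10 C1ql2-low and 8 between. The western diet held 5 C1ql2-high and 12 C1ql2-low libraries, and the control diet 5 and 9. NaKtide groups held 4 C1ql2-high and 12 C1ql2-low libraries, and groups without NaKtide 6 and 9.

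Within the hippocampus label, western diet with NaKtide had 1 C1ql2-high library of 6, western diet 3 of 5, control diet with NaKtide 2 of 5 and control diet 2 of 6. No group was made up of C1ql2-high libraries alone, and both classes occurred in 6 of the 8 groups; cerebellum western NaKtide and cerebellum control held no C1ql2-high library. C1ql2 was measured at 149.8 CPM in hippocampus western 1, 134.5 in hippocampus control NaKtide 1, 126.4 in hippocampus western 5 and 122.3 in cerebellum control NaKtide 1. The other C1ql2-high libraries were hippocampus control 4 at 93.3 CPM, hippocampus control 2 at 89.9, hippocampus western NaKtide 2 at 84.8, hippocampus western 4 at 78.4, cerebellum western 2 at 77.5 and hippocampus control NaKtide 2 at 61.9. A library labelled cerebellum thus stood among the 4 highest of the series.

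The thresholds cut a continuous scale at its low end. Just inside the upper threshold was hippocampus control NaKtide 2, at 61.9 CPM from 373 counts. Just outside it were hippocampus control NaKtide 3 at 40.4 CPM and cerebellum western NaKtide 2 at 40.2 CPM. At the lower threshold, cerebellum western 5 was just inside at 9.48 CPM and cerebellum control 1 just outside at 11.0 CPM. The 95% exact binomial intervals of C1ql2, which cover counting error only, included 50 CPM in 0 of the 42 libraries. They included 10 CPM in 6 of the 21 C1ql2-low and 2 of the 11 intermediate libraries, so depth does not resolve the class of those libraries.

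**Figure D1:**
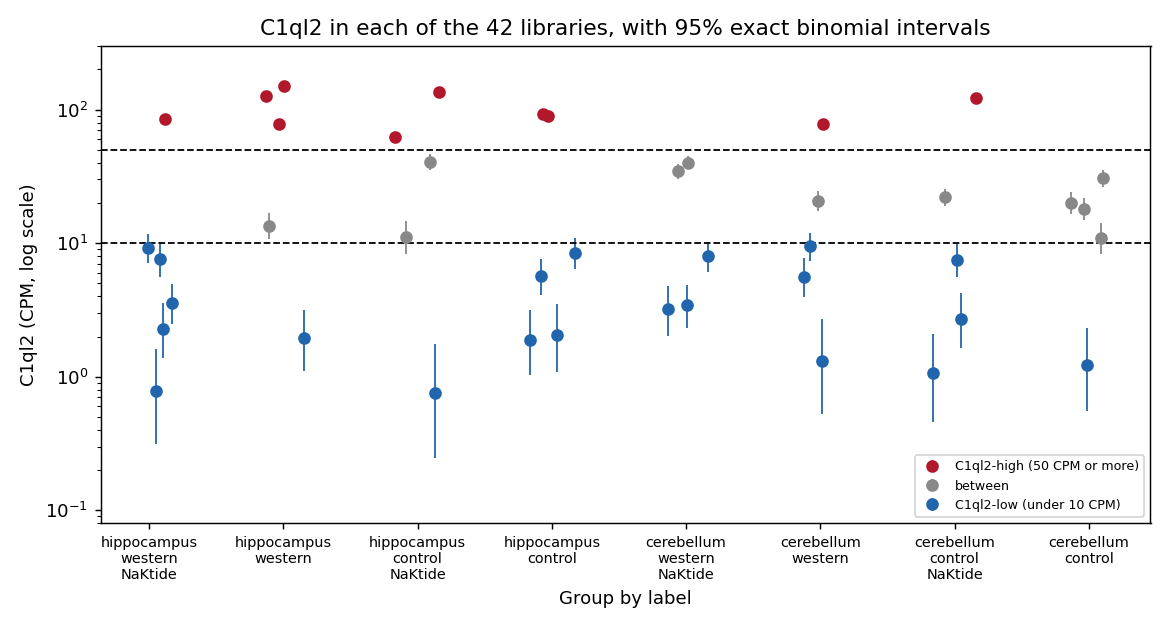
C1ql2 in CPM (log axis) in each library, by group of the labels, with 95% exact binomial intervals and dashed lines at the thresholds of 50 and 10 CPM. The 10 C1ql2-high libraries lie in 6 of the 8 groups and most groups hold both C1ql2-high and C1ql2-low libraries.

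The labelled groups were compared for C1ql2 by a two-sided exact permutation test of the mean log2(CPM + 1), with p adjusted over 8 comparisons by the Benjamini-Hochberg method. In libraries labelled hippocampus, C1ql2 had 0.79, 5.58 and 84.8 CPM as lowest, median and highest value on western diet with NaKtide. On western diet alone it had 1.95, 13.5, 78.4, 126.4 and 149.8 CPM. The groups overlapped over most of their range, and the difference was -2.26 on the log2 scale (exact permutation p = 0.115, adjusted p = 0.797). Western diet with NaKtide against control diet with NaKtide gave -1.63 (exact permutation p = 0.238, adjusted p = 0.797). Western against control diet gave 1.496 and control diet with NaKtide against control diet 0.87, with exact permutation p = 0.299 and p = 0.537. In libraries labelled cerebellum the 4 differences were -0.17 to 0.08, with exact permutation p of 0.897 or more. None of the 8 passed at an adjusted p of 0.05. The group sizes allow an unadjusted permutation p down to 0.00216 in the hippocampus label and 0.00794 in the cerebellum label. A single cerebellum-labelled comparison at that limit would not by itself pass after adjustment over 8. Between the region labels the difference was 0.44 (permutation test within diet and treatment, 100000 resamples, p = 0.491), hippocampus minus cerebellum, with medians of 10.2 and 10.3 CPM.

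Among 12656 genes with a mean of at least 5 CPM over the 42 libraries, 5 had ranges that lay apart and higher in C1ql2-high libraries (0.0395% of those genes), C1ql2 itself included. Those lower in C1ql2-high libraries numbered 0 (0%). Dsp, Kcng2 and Serpina3n were among the 5 higher ones, and Kcng2 was named after its values were seen. Since the classes were selected on C1ql2 in the same libraries, nothing is read from these shares.

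Dsp (ENSMUSG00000054889, chromosome 13, 38151294 to 38198577), which encodes the desmosome protein desmoplakin, had a lowest, median and highest level of 5.25, 18.4 and 71.1 CPM in C1ql2-high libraries. In C1ql2-low libraries these were 0, 0.30 and 2.27 CPM. Its counts were 32 to 489 in C1ql2-high and 0 to 17 in C1ql2-low libraries. The ranges did not overlap, and the ratio of (mean CPM + 1) was 4.12 on the log2 scale, C1ql2-high over C1ql2-low. Kcng2, a modifying subunit of voltage-gated potassium channels, had 12.2, 20.4 and 41.3 CPM in C1ql2-high libraries, against 1.30, 5.53 and 10.9 CPM in C1ql2-low libraries. Serpina3n, a protease inhibitor of astrocytes, had 26.1, 39.7 and 82.0 CPM in C1ql2-high libraries, against 5.03, 15.1 and 23.4 CPM in C1ql2-low libraries. The gap between the classes was wide for Dsp and narrow for Kcng2 and Serpina3n. Serpina3n belongs to a cluster of similar genes, among which the counting can divide reads. With hippocampus-labelled libraries alone 29 genes lay apart and higher. Such genes numbered 7 without hippocampus control 2, and 8 each without hippocampus control 4 and without hippocampus western NaKtide 2. Without cerebellum western 3 they numbered 12. Ranges that lie apart stay apart when libraries are left out, so all 5 genes stayed among them by construction.

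Prox1, the second marker of granule cells, was higher on average in C1ql2-high libraries but did not separate the classes. It had 14.9, 33.1 and 105.9 CPM as lowest, median and highest value in C1ql2-high libraries, against 4.31, 10.7 and 26.7 CPM in C1ql2-low libraries. Of the 10 C1ql2-high libraries 7 were above every C1ql2-low library, while 5 of 21 C1ql2-low libraries reached the level of the lowest C1ql2-high one. The log2 ratio was 1.83. The highest Prox1 of the C1ql2-low class was in hippocampus western NaKtide 3, with 26.7 CPM beside 9.20 CPM of C1ql2 and 0.30 CPM of Dsp. Prox1 is also made outside the dentate gyrus, in some interneurons and in thalamic and cerebellar neurons.

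Lct, the lactase gene, had 2.46, 24.0 and 70.2 CPM in C1ql2-high libraries, against 0, 0.81 and 5.44 CPM in C1ql2-low libraries. Hippocampus western NaKtide 2, the lowest of the C1ql2-high class, was the library that overlapped; the other 9 were above all C1ql2-low libraries. Tdo2, which encodes tryptophan dioxygenase, had 2.49, 3.63 and 7.85 CPM in C1ql2-high libraries, against 0, 0.56 and 1.68 CPM in C1ql2-low libraries. These ranges lay apart at levels below the minimum of 5 CPM used above. Il1r1, the interleukin-1 receptor, had 3.20, 5.80 and 16.4 CPM in C1ql2-high libraries, against 0.59, 1.77 and 4.29 CPM in C1ql2-low libraries. Its log2 ratio was 1.48 and its ranges overlapped at their edges.

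The list of dentate granule cell genes held 18 members besides C1ql2, all of them in the files and 15 with a mean of at least 5 CPM. The log2 ratio was positive for 13 and negative for 5, with a median of 0.70. Over all 12655 other genes 59.2% of ratios were positive and the median was 0.04. Within the hippocampus label alone (8 C1ql2-high and 11 C1ql2-low libraries) 14 of 18 were positive with a median of 0.62, beside 59.1% and 0.05 for all genes. Within the cerebellum label (2 and 10 libraries) 12 of 18 were positive with a median of 0.57, beside 63.2% and 0.08. The summed level of the 18 members overlapped between the classes. It was 494.3 to 1406 CPM (median 808.1) in C1ql2-high and 267.9 to 1154 CPM (median 741.2) in C1ql2-low libraries.

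Below the 5 genes just given, the positive members had smaller ratios and overlapping ranges. Sema5a, a semaphorin of axon guidance, had 26.1, 51.7 and 137.3 CPM as lowest, median and highest value in C1ql2-high libraries, against 14.02, 25.1 and 58.5 CPM in C1ql2-low libraries, a log2 ratio of 0.99. Trpc6, a cation channel, had 7.82, 10.55 and 13.9 CPM in C1ql2-high libraries, against 0.15, 5.74 and 13.0 CPM in C1ql2-low libraries, a ratio of 0.70. Every C1ql2-high library thus held at least 7.82 CPM of Trpc6, and single C1ql2-low libraries reached the same level. The Notch coactivator Maml2 was at 0.78, the zinc finger factor Glis3 at 0.73, Dock10, an activator of small GTPases, at 0.69 and the SNARE-binding protein gene Stxbp6 at 0.67 on the same scale. The actin-binding caldesmon gene Cald1 and Fam163b were at 0.40 and 0.35.

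The other 5 members had negative ratios. Calb1, the calcium buffer calbindin, averaged 127.7 ± 43.7 CPM in C1ql2-high and 167.4 ± 151.9 CPM in C1ql2-low libraries (SD, n = 10 and 21), a log2 ratio of -0.39. Gsg1l, an auxiliary subunit of AMPA receptors, averaged 41.4 ± 13.2 CPM in C1ql2-high and 100.9 ± 38.0 CPM in C1ql2-low libraries, a ratio of -1.27. The polo-like kinase gene Plk5 was at -0.14, Akap7, an anchor of protein kinase A, at -0.22 and Pdzd2 at -0.44. Calb1 depended on the label, with a ratio of 0.04 within the hippocampus label and -1.02 within the cerebellum label, where 1 C1ql2-low library reached 801.0 CPM. Fam163b changed sign as well, with 0.46 within the hippocampus label and -0.11 within the cerebellum label. Gsg1l was lower in both, at -1.33 and -0.97.

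**Figure D2:**
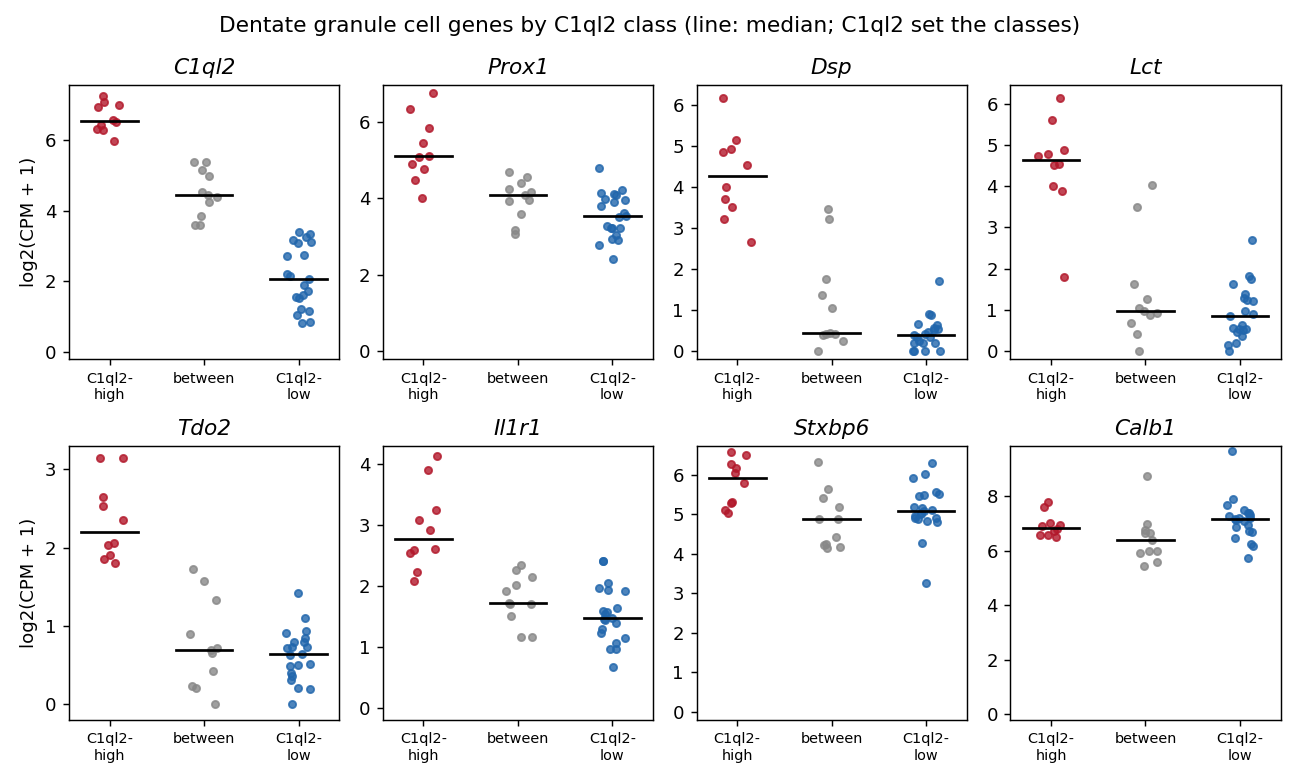
log2(CPM + 1) of 8 dentate granule cell genes in C1ql2-high (n = 10), intermediate (n = 11) and C1ql2-low libraries (n = 21), one point per library, with the median as a line. Dsp, Lct and Tdo2 are high in the C1ql2-high class, Prox1 and Il1r1 overlap, and the Calb1 levels of the classes overlap.

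Members of the dentate list also varied together to differing degrees, and some pairs went in opposite directions. Over the 153 pairs of the 18 members besides C1ql2, the median Spearman correlation was 0.38 in the 22 libraries labelled hippocampus and 0.28 in the 20 labelled cerebellum. In the hippocampus label the highest pairs were Dsp with Tdo2 at 0.90, Prox1 with Sema5a at 0.82 and Prox1 with Dsp at 0.81. In the cerebellum label they were Gsg1l with Pdzd2 at 0.84, Fam163b with Pdzd2 at 0.83 and Prox1 with Cald1 at 0.76. The lowest pairs were Prox1 with Gsg1l at -0.73 in the hippocampus label and Gsg1l with Maml2 at -0.63 in the cerebellum label. Gsg1l and Pdzd2 were members with negative ratios between the classes. Prox1 and Lct, both higher on average in the C1ql2-high class, had 0.55 in the hippocampus label and 0.34 in the cerebellum label. The points of each correlation share library, depth and dissection, so they are a description only. Fewer granule cells in a sample and less of these transcripts per cell cannot be told apart in bulk RNA.

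The C1ql2-high libraries differed among themselves in how much Dsp, Lct and Prox1 they held. Dsp, as a percentage of C1ql2 in the same library (both in CPM, a ratio used only between libraries), was 47.4% in hippocampus western 1 and 43.7% in hippocampus western 4. It was 21.7% to 21.9% in hippocampus control NaKtide 1 and hippocampus western 5, 13.4% to 17.95% in 5 further libraries and 6.19% in hippocampus western NaKtide 2. The same 2 western libraries had the highest Prox1, at 105.9 and 79.8 CPM. Hippocampus western NaKtide 2 combined 84.8 CPM of C1ql2 with 5.25 CPM of Dsp and 2.46 CPM of Lct. Hippocampus control 4 and 2, with similar C1ql2 at 93.3 and 89.9 CPM, held 14.9 and 12.0 CPM of Dsp and 28.3 and 21.98 CPM of Lct.

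The intermediate libraries divided in the same respect. Hippocampus control NaKtide 3 and cerebellum western NaKtide 2, at 40.4 and 40.2 CPM of C1ql2, held 8.32 and 10.04 CPM of Dsp and 15.3 and 10.3 CPM of Lct. Cerebellum western NaKtide 3, with 34.4 CPM of C1ql2, had 1.08 CPM of Dsp. Cerebellum control 4, with 30.6 CPM of C1ql2 from 190 counts, had 0 counts of Dsp, 0 of Lct and 0 CPM of Tdo2. A count of C1ql2 in that range thus did not come with Dsp and Lct in every library. Dsp was at 5 CPM or more in all 10 C1ql2-high, 2 of 11 intermediate and 0 of 21 C1ql2-low libraries.

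Genes of other cell types also differed between the classes. The list of striatal medium spiny neuron genes had a log2 ratio below 0 for all 10 members, with a median of -1.93. Ppp1r1b, the phosphatase inhibitor DARPP of these neurons and the most abundant member, averaged 223.5 ± 297.3 CPM in C1ql2-high and 667.3 ± 536.8 CPM in C1ql2-low libraries. The dopamine receptor gene Drd1 averaged 6.46 ± 7.24 CPM in C1ql2-high and 36.96 ± 34.0 CPM in C1ql2-low libraries. The median was -1.71 within the hippocampus label and -2.95 within the cerebellum label, with 0 of 10 ratios positive in both. Genes of neocortical layers (median -0.87, 8 of 9 negative) and of inhibitory interneurons (median -0.43, 7 of 8 negative) were also lower. The summed level of the striatal list was 222.4 to 2763 CPM in C1ql2-high and 225.7 to 5637 CPM in C1ql2-low libraries, so it overlapped.

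Choroid plexus genes were higher for all 8 members, with a median log2 ratio of 2.40 and sums of 33.2 to 5393 CPM in C1ql2-high and 9.11 to 1802 CPM in C1ql2-low libraries. Ttr, the transthyretin gene of this epithelium, was at 1000 CPM or more in 5 of 10 C1ql2-high and 2 of 21 C1ql2-low libraries, and was as low as 9.37 CPM in hippocampus western 4. This held in the hippocampus label only, where the median was 2.99; in the cerebellum label it was -0.84 with 2 of 8 positive. Midbrain dopamine neuron genes had a median of 1.47 with 7 of 8 positive. The dopamine transporter gene Slc6a3 was at 10 CPM or more in 4 of 10 C1ql2-high libraries, reaching 116.4 CPM in hippocampus western 5 and 92.8 in cerebellum control NaKtide 1, and in 1 of 21 C1ql2-low libraries. The other 6 C1ql2-high libraries had at most 0.83 CPM. Cerebellar genes changed direction with the label, with a median of -1.11 over both labels, 1.38 within the hippocampus label and -2.54 within the cerebellum label. Single libraries held most of these transcripts, with 25.1 CPM of Gabra6 in the C1ql2-high library hippocampus western 4 and 225.2 CPM in the C1ql2-low library cerebellum western 3. The part of these cell types in the levels of the dentate genes was not tested.

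Lists of neighbouring hippocampal cell types were less uniform. Of 6 CA3 pyramidal cell genes 5 had positive ratios, with a median of 0.64. Bok and Spock1, the most abundant of them, had ratios of 0.54 and -0.18. Grik4, a kainate receptor subunit of mossy fibre synapses, averaged 40.2 ± 15.5 CPM in C1ql2-high and 22.7 ± 4.31 CPM in C1ql2-low libraries. Of 7 CA1 pyramidal cell genes 2 were positive, with a median of -0.18. The most abundant, Wfs1 and Mpped1, had ratios of -0.56 and -0.43, whereas Fibcd1 averaged 81.8 ± 52.0 CPM in C1ql2-high and 18.8 ± 21.4 CPM in C1ql2-low libraries. CA2 genes had a median of -0.07 and mossy cell genes one of 0.10. The list of mossy fibre synapse partners, which includes the C1ql2 paralogue C1ql3 and the zinc transporter Slc30a3, had 3 positive and 6 negative ratios and a median of -0.10. Immature granule cell and neurogenesis genes had 6 of 9 positive ratios and a median of 0.14, with Dcx, a microtubule protein of newborn neurons, at -0.68. Grik4, Fibcd1 and Dcx were singled out after their values were seen.

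Glial and vascular lists stayed nearer to the median of all genes. Their medians were 0.23 for oligodendrocytes, 0.16 for astrocytes, -0.03 for microglia and -0.13 for endothelium and pericytes; ependymal genes were at 0.66. The exception within the astrocyte list was Gfap, the intermediate filament of astrocytes, which averaged 442.2 ± 175.6 CPM in C1ql2-high and 186.3 ± 79.4 CPM in C1ql2-low libraries (SD, n = 10 and 21). Thalamic genes had a median of 0.49, hypothalamic genes -0.50 and telencephalic excitatory neuron genes 0.01. The lists of hindbrain and serotonin neurons, pituitary and olfactory bulb had medians of 0.16, 0.07 and -0.29.

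**Figure D3:**
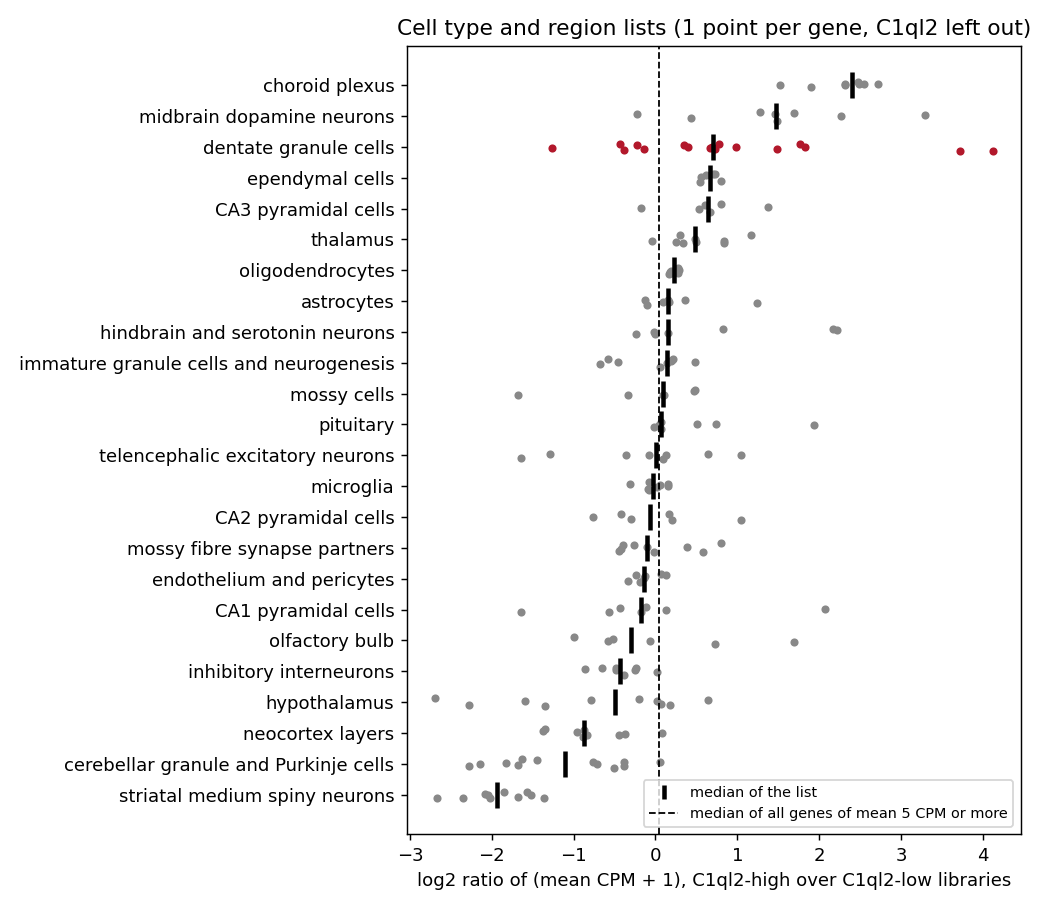
log2 ratio of (mean CPM + 1), C1ql2-high over C1ql2-low libraries, for each gene of 24 lists of cell types and regions, with the list median as a bar and the median of all genes (0.04) as a dashed line. Choroid plexus, midbrain dopamine and dentate granule cell lists have the highest medians and the striatal list the lowest, -1.93.

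Genes that varied with C1ql2 were ranked by Spearman correlation, taken separately in the 20 libraries labelled cerebellum and the 22 labelled hippocampus, with the lower of both values as the measure of likeness. Over all 12655 genes the median correlation was 0.06 in the cerebellum label and 0.05 in the hippocampus label. The 15 closest genes included Serpina3n (0.89 in the cerebellum label, 0.78 in the hippocampus label), Lmo1, a LIM-domain cofactor (0.83 and 0.75), Nkd2, an inhibitor of Wnt signalling (0.85 and 0.74), and Gfap (0.74 and 0.76). Among the next were the pannexin gene Panx2, the glutathione transferase Gsta4, the phosphatase inhibitor Ppp1r14c, the adhesion molecule Amigo2, the peptidase Pgpep1, the LIM homeodomain factor Lhx9, the Hedgehog transducer Smo, the corepressor Ctbp2, Tmem28 and Cachd1, with lower values of 0.69 to 0.73. None of the 15 was a member of the dentate list. The dentate genes Prox1 (0.61 and 0.82), Dsp (0.53 and 0.85) and Lct (0.52 and 0.70) ranked below them by their lower correlation in the cerebellum label, where 3 of 20 libraries had 5 CPM or more of Dsp. Tdo2 had 0.19 and 0.83, and Calb1 had -0.59 and 0.00.

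Lhx9, which marks neurons of thalamus and midbrain, had 5.42, 14.1 and 26.4 CPM as lowest, median and highest value in C1ql2-high libraries, against 0, 1.16 and 10.4 CPM in C1ql2-low libraries. It reached 32.3 CPM in the intermediate library cerebellum western 4, which had 20.7 CPM of C1ql2. Genes with the lowest likeness were lower in libraries with more C1ql2. Tyro3, a receptor kinase of neurons, had correlations of -0.79 in the cerebellum label and -0.78 in the hippocampus label, and averaged 113.7 ± 34.9 CPM in C1ql2-high and 223.6 ± 46.1 CPM in C1ql2-low libraries. The others were Ldlrad4, Atp6ap1l, the GTPase-activating protein gene Arhgap10, the Notch inhibitor Numb, the synaptic adhesion gene Igsf21, Ivns1abp and Kctd1, with correlations of -0.80 to -0.68. Arhgap10 averaged 8.57 ± 4.07 CPM in C1ql2-high and 22.2 ± 7.27 CPM in C1ql2-low libraries.

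Genes ranked in one region label were read in the other. The 100 genes with the highest correlation in the cerebellum label had a median correlation of 0.36 in the hippocampus label, where 93 of them were positive, against 55.4% of all 11396 genes with a symbol. The 100 genes ranked in the hippocampus label had a median correlation of 0.55 in the cerebellum label, where 98 were positive, against 54.4%. The libraries of each ranking were not used in the reading, but some of the closest pairs of libraries crossed the region labels. The mean chi-square per gene was 3.94 between cerebellum western NaKtide 5 and hippocampus control 6. It was 7.09 between cerebellum western 1 and hippocampus control 3. The reading may therefore not be independent of the ranking. Genes are not independent of each other either, and no p is given.

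**Figure D4:**
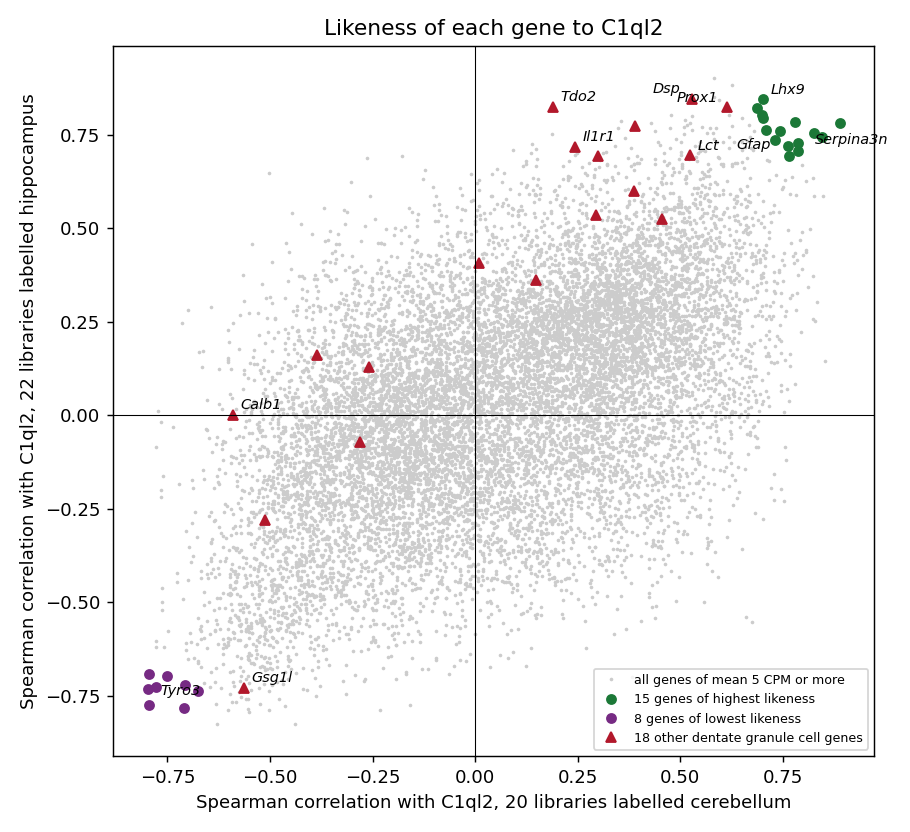
Spearman correlation of each gene with C1ql2 in the 20 libraries labelled cerebellum (x axis) and the 22 labelled hippocampus (y axis), with the 15 closest genes, the 8 most opposed genes and the 18 other dentate granule cell genes marked. Dentate genes such as Tdo2 and Dsp sit high on the y axis, and Serpina3n is high on both.

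The largest ratios between the classes fell on different sets of libraries. The 10 highest log2 ratios included those of Dsp and Lct, then Slc6a3 at 3.30, Ttr at 2.72, Kcnj13 at 2.67, Kl at 2.55, Kcne2 at 2.49, Lhx9 at 2.29 and Dgkg at 2.23. Ttr, Kl, Kcnj13 and Kcne2 are choroid plexus genes, and their correlation with C1ql2 in the cerebellum label was -0.18 to 0.15. The 10 lowest included Xist at -3.50, the neuropeptides Oxt and Avp at -2.70 and -2.28, Drd1 and Rgs9 of the striatum at -2.35 and -2.08, Serpina9 at -2.30, the cerebellar genes Fat2 and Cbln3 at -2.28 and -2.15, and Cd4 at -2.06. Xist had at most 0.16 CPM in C1ql2-high libraries and up to 162.5 CPM in the C1ql2-low ones. Fat2 and Cbln3 averaged 28.5 ± 129.4 and 51.2 ± 231.0 CPM in C1ql2-low libraries, with SD far above the mean. Dgkg had a median of 5.64 and a highest value of 119.6 CPM in C1ql2-high libraries. Oxt and Avp had medians of 0.79 and 1.99 CPM in C1ql2-low libraries, with highest values of 44.6 and 59.9 CPM.

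Whether the labelled groups differed in dentate genes was tested with edgeR's quasi-likelihood F test over all genes, with Benjamini-Hochberg adjustment; genes were called at an adjusted p under 0.05. Between the region labels 8 of 17088 genes were called (0.0468%), all of them lower in the hippocampus label. Of the 19 dentate genes 0 were called, with 8 at an unadjusted p under 0.05, a level met by 12.8% of all genes tested, and 0 called by DESeq2. Their median log2 fold change was 0.46, hippocampus over cerebellum label, beside -0.01 for all genes. Dsp had 1.89 (SE 0.74, edgeR adjusted p = 0.287) with 10 of 22 libraries above the mean of the cerebellum label. Prox1 had 0.65 (SE 0.26, edgeR adjusted p = 0.299) with 13 of 22. Without cerebellum control 3 there were 13 calls in all, and without the 4 Xist libraries 43, with 0 dentate genes among them in both.

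Within the hippocampus label, western diet with NaKtide was set against western diet alone. The edgeR test called 5542 of 16442 genes (33.7%), of which 2686 were lower (16.3% of all tested). Of the 19 dentate genes 8 were called, all lower with NaKtide, and the median log2 fold change over the 19 was -0.997 beside 0.05 for all genes. The 8 were Prox1, Sema5a, Il1r1, Lct, Maml2, Stxbp6, Glis3 and Dsp. The share of 8 in 19 lower stood above 16.3%. The groups also differed in how many C1ql2-high libraries they held, 1 of 6 and 3 of 5. The part of this in the dentate calls was not tested.

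Dsp, which separated the classes, is given library by library as an example and does not stand for the other called genes. In western libraries with NaKtide it had 0, 0.30, 0.34, 0.47, 0.84 and 5.25 CPM. In western libraries without NaKtide it had 0.32, 0.85, 27.6, 34.2 and 71.1 CPM. The 3 C1ql2-high western libraries were far above all others, the 2 remaining ones lay within the range of the NaKtide libraries, and the groups overlapped. The log2 fold change was -4.44 (SE 1.33, edgeR adjusted p = 0.0151), with 6 of 6 NaKtide libraries below the western mean. Lct had the same structure, with 0 to 2.46 CPM in western libraries with NaKtide and 0.32, 2.07, 22.2, 25.8 and 70.2 CPM in those without, a log2 fold change of -4.95 (SE 1.33, edgeR adjusted p = 0.00905). Prox1 had 4.31 to 28.9 CPM with NaKtide and 14.2, 14.9, 56.1, 79.8 and 105.9 CPM without (log2 fold change -1.64, SE 0.53, edgeR adjusted p = 0.0229). In Prox1 too, the 2 western libraries outside the C1ql2-high class lay inside the NaKtide range.

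Stxbp6, which encodes the SNARE-binding protein amisyn, differed from this pattern. It had 18.3, 26.7, 27.3, 32.8, 33.1 and 33.2 CPM in western libraries with NaKtide, against 76.6, 76.9, 79.5, 88.8 and 93.7 CPM in those without. The groups did not overlap, and the C1ql2-high library of the NaKtide group, at 33.1 CPM, and the 2 western libraries outside the class, at 76.9 and 79.5 CPM, followed their group. The log2 fold change was -1.42 (SE 0.24, edgeR adjusted p = 0.00123). C1ql2 itself had -1.93 (SE 1.198, edgeR adjusted p = 0.214), Tdo2 -2.07 (SE 0.86, edgeR adjusted p = 0.0648) and Calb1 -0.28 (SE 0.30, edgeR adjusted p = 0.474), so these were not called. Plk5 and Gsg1l had positive log2 fold changes of 0.71 and 0.47 and were not called either.

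With the C1ql2 level of each library as a covariate, 5 of the 19 dentate genes were called in this comparison and 6992 genes in all. The 19 include C1ql2, which was fitted on itself here, so its lack of a call was fixed in advance. This fit also removes part of the difference of any gene that varies with C1ql2, so the changed calls are a description only. Of the 8 genes Lct, Maml2 and Stxbp6 stayed called and 5 did not, while Pdzd2 and Akap7 were newly called. Dsp moved to -1.59 (edgeR adjusted p = 0.0506) and Prox1 to -0.67 (edgeR adjusted p = 0.159), and Sema5a, Il1r1 and Glis3 to -0.84, -0.64 and -0.58. Without hippocampus western 1, the library with the highest C1ql2, 5 dentate genes were called, and without hippocampus western NaKtide 2 there were 12. Calls over all genes moved as well, from 3807 to 6116 with single libraries left out, so nothing is read from these dentate counts. Lists of other cell types were called in the same comparison, with 5 of 10 striatal and 4 of 8 microglial genes higher with NaKtide, against 17.4% of all genes tested. Called lower, against 16.3% of all, were 5 of 9 cerebellar, 4 of 7 astrocyte, 3 of 6 CA3 and 4 of 10 mossy fibre synapse genes, the last a list that shares members with others. Their part in the dentate result was not tested.

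**Figure D5:**
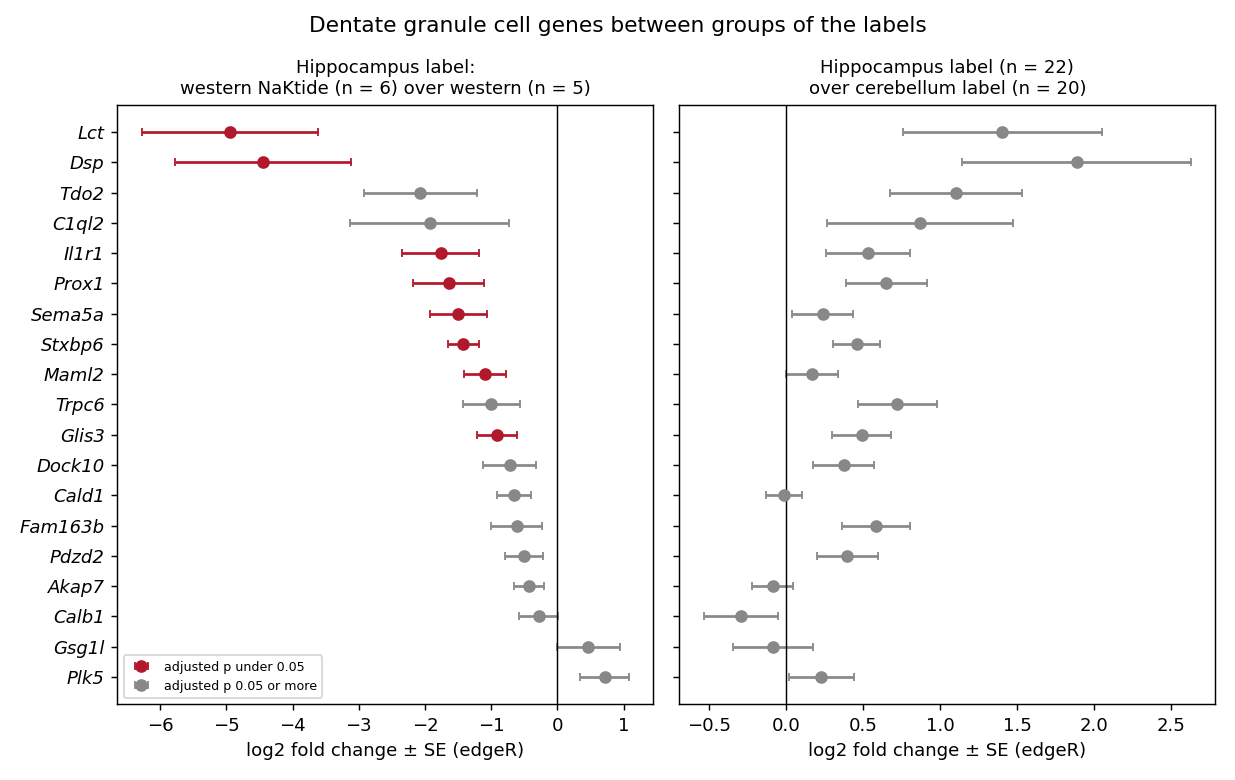
log2 fold change with SE of the 19 dentate granule cell genes by edgeR, for western diet with NaKtide over western diet in the hippocampus label (left) and hippocampus over cerebellum label (right). The 8 genes called on the left are in red, from Lct at -4.95 to Glis3 at -0.91, and 0 are called on the right.

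The other 3 comparisons within the hippocampus label called 0 of 16442 genes (0%) each by edgeR. At an unadjusted p under 0.05 these were 4046 genes for western over control diet, 2720 for control diet with NaKtide over control diet and 1756 for western diet with NaKtide over control diet with NaKtide. DESeq2 called 825, 12 and 33 genes in these comparisons, and 4, 0 and 0 of the dentate genes. For western over control diet, which shares its western libraries with the comparison above, the median log2 fold change of the dentate genes was 0.77 beside -0.03 for all genes. Glis3 had the smallest p among them, with a log2 fold change of 1.16 (SE 0.30, edgeR adjusted p = 0.0866), and 5 of 5 western libraries were above the control mean. Prox1 had 1.68 (SE 0.54, edgeR adjusted p = 0.102), with 3 of 5 above it. Without the 4 libraries with Xist, 2 of which are in the control group, 2209 genes and 1 dentate gene were called. With the C1ql2 level as a covariate, 2470 genes and 2 dentate genes were called, which is a description only, as above. Without hippocampus western 5 there were 345 calls and without hippocampus control 6 there were 515, with 1 dentate gene called in each.

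For control diet with NaKtide over control diet the dentate median was -0.08, and for western diet with NaKtide over control diet with NaKtide it was -0.35; the first shares its control libraries, and the second its western NaKtide libraries, with comparisons above. In the last, Lct had 0 to 2.46 CPM in western NaKtide libraries and 1.07, 1.36, 15.1, 15.3 and 47.7 CPM in control NaKtide libraries, a log2 fold change of -4.55 (SE 1.33, edgeR adjusted p = 0.347) with 6 of 6 below the control NaKtide mean. A p that misses the threshold does not show that the groups are alike.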

How the data were processed

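Stranded mRNA libraries were prepared from total RNA, per the labels' protocols. For read trimming, alignment and statistics the submitters' processing notes list, without roles, Trimmomatic 0.38, HISAT2 2.1.0, DESeq2 1.20.0 and the build GRCm38; the counter is not stated. The authors deposited raw counts of 54232 genes in 42 libraries, the only table used. Of these IDs 54079 matched a symbol, and gene positions are from GENCODE M21.

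CPM used column totals; log2 ratios used mean CPM + 1, which understates ratios of low genes. Rankings took genes with a mean of at least 5 CPM. Named genes were the dentate list, the 15 highest and 8 lowest by likeness to C1ql2, the 10 highest and 10 lowest ratios and the 2 most abundant members of other lists; some genes that met this rule are not reported here. Groups were tested on the counts with edgeR 4.0.16 in R 4.3.3 (TMM, filterByExpr, quasi-likelihood F test), fitting the 4 hippocampus-labelled groups, or all 8 for the region labels. Alternatives were DESeq2 1.42.0, its size factors, no count filter, C1ql2 as a covariate, a replicate block, other thresholds and left-out libraries; leaving out libraries for the ranges was added after seeing the data. Scripts were tested on simulated data. The classes, gene lists and tests were chosen with earlier results of these data known.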

Additional observations from a re-analysis of the deposited data

Results flagged for a closer look

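C1ql2, Prox1, Dsp and Lct were examined in each of the 8 groups for a library that stood far from the rest of its group. Of the 32 sets of values 11 held such a library. Chance flags about 1 in 20 independent groups of normally distributed values. The CPM used here were not log-transformed and are skewed, and these sets share libraries and genes that vary together. The number is therefore not set against that rate.

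In cerebellum control NaKtide, library 1 stood apart with 122.3 CPM of C1ql2 (the others had 1.06 to 22.02), 21.9 CPM of Dsp (0 to 1.58) and 26.4 CPM of Lct (0.43 to 2.07). In cerebellum western, library 2 stood apart with 77.5 CPM of C1ql2 (the others 1.30 to 20.7), 10.4 CPM of Dsp (0 to 2.27) and 13.7 CPM of Lct (0.37 to 2.54). In cerebellum western NaKtide, library 2 had 10.04 CPM of Dsp against 0.38 to 1.08 in the others. In hippocampus western NaKtide, library 2 had 84.8 CPM of C1ql2 against 0.79 to 9.20 and 5.25 CPM of Dsp against 0 to 0.84. In hippocampus control NaKtide, library 1 had 42.7 CPM of Prox1 against 8.30 to 17.99 and 29.2 CPM of Dsp against 0.15 to 8.32. Each of these libraries is C1ql2-high except cerebellum western NaKtide 2, which had 40.2 CPM of C1ql2.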

How the results depend on the processing

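With thresholds of 100 and 5 CPM, 4 libraries were C1ql2-high and 13 C1ql2-low. Genes whose ranges lay apart numbered 5 to 12 higher and 0 to 2 lower when single libraries were left out; 29 were higher with the hippocampus label alone and 2 lower with TMM-scaled CPM. Leaving out libraries can only keep or raise the numbers of genes whose ranges lie apart, so their rise is no result in itself. The cause of the other changes was not tested here or below.

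The C1ql2 difference between western diet with NaKtide and western diet in the cerebellum label changed sign to 0.0158 with a pseudocount of 0.1 CPM, 0.0395 with TMM-scaled CPM and 0.35 without the 4 Xist libraries. Leaving out single libraries, the cerebellum-labelled differences ran from -0.63 to 0.64 for this comparison, -0.73 to 0.54 for western over control, -1.03 to 0.44 for control NaKtide over control and -0.54 to 0.94 for western NaKtide over control NaKtide. The 4 differences in the hippocampus label kept their sign.

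Genes called between the region labels numbered 85 by DESeq2, 14 with C1ql2 as a covariate, 43 without the Xist libraries and 0 to 13 with single libraries left out. For western NaKtide over western in the hippocampus label, 5 dentate genes were called with the covariate and 5 to 12 with single libraries left out. Over all genes, calls ran from 3807 to 6116 with single libraries left out. For western over control, calls were 825 by DESeq2, 8 without the count filter, 2470 with the covariate, 2209 without the Xist libraries and 0 to 515 with single libraries left out; dentate calls were 4, 2 and 1 by DESeq2, with the covariate and without the Xist libraries, and 0 to 1 with single libraries left out. For control NaKtide over control these were 12 by DESeq2, 1 without the filter and 0 to 1; for western NaKtide over control NaKtide, 33, 1 and 0 to 6. Over 224 combinations of setting and gene for the 8 called dentate genes, 212 kept the call, 12 lost it and 0 changed sign. Many of these settings left out a single library, including control diet libraries that are in neither group compared. With the covariate alone 5 of the 8 lost the call. All counts with the covariate are a description only, since C1ql2 also set the classes.

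Replicate numbers were not taken to pair libraries. Same-numbered libraries of different groups within the hippocampus label correlated from -0.51 to 0.43 (median -0.12) after group means were subtracted. Whether hippocampus- and cerebellum-labelled libraries of the same group and number came from the same mouse was not checked. The tests between region labels treated them as unpaired. With the replicate number as a block, 0 genes were called between the region labels, 5221 genes and 8 dentate genes for western NaKtide over western, and 0 in the other 3 comparisons; Prox1 was then at -1.48 (edgeR adjusted p = 0.0787). Depth limits the class boundary at 10 CPM and low genes such as Tdo2.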
